A study of Mus musculus with 14 samples.

Results

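The 10 genes examined here mark the endothelial cells that line blood and lymphatic vessels. Blood endothelial cells were represented by Pecam1, Cdh5, Kdr, Flt1, Tek and Vwf, and lymphatic endothelial cells by Flt4, Prox1, Lyve1 and Pdpn. They were found by symbol among the 55291 gene rows deposited for each of 14 bulk RNA-Seq samples of mouse esophagus, and each symbol matched 1 row. The samples came from 9 wild type C57BL/6 mice, aged (18 months or more) or young (4 months or less), with no transgene or treatment. These age limits are those of the series design, and the methods set the limit for aged mice slightly higher. Peeled epithelium was sequenced from 5 aged mice (O1, O2, O3, OF5 and OM8) and 4 young mice (Y1, Y3, YF5 and YM4). Stroma was sequenced from 5 of the same animals, aged O1, O2 and O3 and young Y1 and Y3. Sex is labelled for OM8, YF5 and YM4 only. The methods obtain the epithelium by pulling away the muscle layer with forceps and call what is left an epithelium-enriched mucosal layer, so these sheets are not purified keratinocytes.

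Blood and lymphatic vessels are both built from endothelial cells that respond to vascular endothelial growth factors (VEGFs). VEGF-A acts on blood endothelium through the receptors encoded by Kdr and Flt1, of which Kdr carries most of the growth signal and Flt1 binds the ligand tightly and is also made as a soluble form that traps it. VEGF-C and VEGF-D act on lymphatic endothelium through the receptor encoded by Flt4, and Prox1 is the transcription factor that sets lymphatic identity. The squamous epithelium of the esophagus holds no vessels of its own and is supplied by vessels in the connective tissue beneath it. In bulk tissue, fewer endothelial cells and less RNA per endothelial cell cannot be told apart.

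Levels are given as normalized counts, which are CPM values on a library size adjusted by the trimmed mean of M values (TMM). Total counts ran from 8217516 to 21867101 in epithelium and from 13257833 to 15644580 in stroma. The 4 epithelial samples of mice without stroma (OF5, OM8, YF5 and YM4) stood apart, because mitochondrial transcripts and a few repeated loci took 77.0 to 83.01% of their counts against 36.3 to 48.0% in the other samples. A count of 3, at or below which a gene is treated here as at the floor, is worth 0.707 to 1.25 normalized counts in these 4 samples and 0.0872 to 0.175 in the other 10. The labelled layers were checked with 7 basal keratinocyte genes, all of which were higher in epithelium (from Itga6, log2 fold change 1.34, to Krt5, 6.51), with summed levels of 898 to 2593 in epithelium and 48.5 to 98.7 in stroma.

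Sequence upstream of the transcription start was available for 6 of the 10 genes in RefSeq (GRCm38.p6). The windows shown are those of 2 genes that fell in epithelium (Tek and Prox1) and of the 2 that did not (Flt1 and Pdpn), each covering the 250 bases before the start in the direction of transcription. Capitals mark the letters AGGAAG, a form of the motif of ETS factors, a family of transcription factors known to act in endothelium. Shorter and other forms of the motif were not searched.
Tek, chr4:94739039-94739288, plus strand: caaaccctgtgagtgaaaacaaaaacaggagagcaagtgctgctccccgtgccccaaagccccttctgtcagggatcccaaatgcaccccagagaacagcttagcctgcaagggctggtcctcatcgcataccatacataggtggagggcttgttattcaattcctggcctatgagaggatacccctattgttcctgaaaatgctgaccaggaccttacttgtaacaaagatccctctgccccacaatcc
Prox1, chr1:190170828-190171077, minus strand: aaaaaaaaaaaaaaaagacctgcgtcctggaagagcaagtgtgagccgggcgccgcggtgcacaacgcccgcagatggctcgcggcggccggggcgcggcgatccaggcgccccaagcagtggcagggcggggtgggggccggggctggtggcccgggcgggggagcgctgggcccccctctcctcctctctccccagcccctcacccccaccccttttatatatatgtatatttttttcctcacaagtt
Flt1, chr5:147726012-147726261, minus strand: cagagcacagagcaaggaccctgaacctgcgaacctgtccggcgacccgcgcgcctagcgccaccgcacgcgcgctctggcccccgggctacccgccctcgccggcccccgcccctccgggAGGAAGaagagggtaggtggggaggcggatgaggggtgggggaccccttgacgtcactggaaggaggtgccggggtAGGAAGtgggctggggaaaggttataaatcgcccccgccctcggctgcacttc
Pdpn, chr4:143299565-143299814, minus strand: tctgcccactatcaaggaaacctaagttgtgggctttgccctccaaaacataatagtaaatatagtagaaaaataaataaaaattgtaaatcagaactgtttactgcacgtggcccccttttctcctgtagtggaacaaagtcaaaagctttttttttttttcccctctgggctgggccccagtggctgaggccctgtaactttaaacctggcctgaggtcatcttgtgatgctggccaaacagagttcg
Flt1 had 2 matches to AGGAAG, with first bases at -129 and -53 relative to the start, and neither AGGAAG nor its reverse complement CTTCCT was found in the other 3 windows. These letters occur in 29.5% of the 32851 RefSeq windows of this length. The GATA motif letters AGATAA or TTATCT were found in 9.99% of all windows and in none of these 4. Prox1 had another RefSeq window (chr1:190169516-190169765), which is not shown and held no match to either motif. Starts here are those of RefSeq, and the Prox1 window shown lies outside its GENCODE gene model, which ends at position 190170714. A match to so short a motif is only a description of the letters.

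The first comparison asked how the endothelial genes differ between the peeled epithelium and the stroma. Both vessel types were represented at lower levels in epithelium: 8 of the 10 genes fell, 5 of 6 blood genes and 3 of 4 lymphatic genes, and none rose. Lymphatic Prox1 and Flt4 showed the lowest fold changes (log2 -4.52 and -3.84), followed by blood Kdr (-2.93). Flt1 and Pdpn did not pass the test. Of 16791 genes tested across the layers, 30.1% were called lower in epithelium and 26.1% higher, at an adjusted p under 0.05 by the edgeR quasi-likelihood method with p-values adjusted after Benjamini and Hochberg. The median log2 fold change was -1.75 for the blood genes and -2.95 for the lymphatic genes, against -0.05 for all genes tested.

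Among the receptors on blood endothelium, Kdr (chromosome 5, 75932827 to 75978458 in GRCm38) had 0.992 to 2.21 normalized counts in epithelium with a median of 1.67 (n = 9). In stroma it had 4.55, 8.22 and 23.1 in aged mice O1, O2 and O3, and 12.0 and 16.7 in young mice Y1 and Y3. Every stromal sample lay above every epithelial one, although the stromal values themselves spread widely, with O1 lowest and O3 highest. The log2 fold change of Kdr was -2.93 (SE 0.32, adjusted p = 1.39e-07).

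Tek, the angiopoietin receptor known for keeping vessels quiescent (chromosome 4, 94739289 to 94874976), ranged from 2.41 to 6.22 in epithelium (median 4.11, n = 9). Its stromal values were 11.8, 18.4 and 22.3 in O1, O2 and O3 and 8.98 and 13.2 in Y1 and Y3. The groups did not overlap, and the log2 fold change was -1.88 (SE 0.24, adjusted p = 1.39e-06).

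Flt1 (chromosome 5, 147561604 to 147726011) was the 1 blood gene of the 6 that was not called. It ranged from 6.92 to 19.6 in epithelium (median 14.04, n = 9) and was 8.93, 11.3 and 12.5 in stroma of O1, O2 and O3 and 11.2 and 14.3 in stroma of Y1 and Y3. All stromal values thus lay inside the epithelial range, and the log2 fold change was 0.19 (SE 0.25, adjusted p = 0.54), which leaves a difference of either sign possible. Gene-level counts do not separate the membrane-bound from the soluble form.

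The endothelial junction genes also fell. Pecam1, which encodes the adhesion protein CD31 (chromosome 11, 106654217 to 106750628), ranged from 1.67 to 11.03 in epithelium (median 5.79, n = 9) against 11.1, 18.2 and 32.9 in stroma of O1, O2 and O3 and 15.5 and 26.3 in stroma of Y1 and Y3. The highest epithelial and the lowest stromal sample nearly met, without overlap, and the log2 fold change was -1.67 (SE 0.31, adjusted p = 0.000102). Cdh5, which encodes VE-cadherin, the adherens junction protein of endothelium (chromosome 8, 104101625 to 104144511), ranged from 1.72 to 6.67 in epithelium (median 3.48, n = 9) against 4.08, 15.8 and 19.5 in stroma of O1, O2 and O3 and 8.88 and 20.5 in stroma of Y1 and Y3. Here O1 stroma fell inside the epithelial range and the other 4 stromal samples lay above it. The log2 fold change of Cdh5 was -1.83 (SE 0.32, adjusted p = 6.18e-05).

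Vwf encodes von Willebrand factor, the clotting protein that endothelial cells store and release (chromosome 6, 125546774 to 125686679). It ranged from 4.82 to 9.39 in epithelium (median 6.75, n = 9) and was 6.48, 16.9 and 36.9 in stroma of O1, O2 and O3 and 23.4 and 13.5 in stroma of Y1 and Y3. Again only O1 stroma overlapped the epithelial samples. The log2 fold change of -1.47 (SE 0.29, adjusted p = 0.000198) was the smallest in size among the 8 called genes.

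The lymphatic transcription factor Prox1 (chromosome 1, 190118035 to 190170714) was close to undetected in epithelium. It had 0 to 10 counts in the 9 epithelial samples, of which 7 held 3 counts or fewer, and the median level was 0.0828 normalized counts. In stroma it had 15 to 105 counts, or 3.03, 3.41 and 0.574 normalized counts in O1, O2 and O3 and 4.39 and 4.14 in Y1 and Y3. The stromal samples were all above the epithelial ones, with O3 far below the other 4. The log2 fold change of -4.52 (SE 0.61, adjusted p = 2.76e-06) rests on these few counts. An antisense gene, Prox1os, overlaps Prox1 exons, and it held 0 to 3 counts in each sample.

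Flt4, the VEGF-C and VEGF-D receptor (chromosome 11, 49609263 to 49652739), showed the same direction at higher counts. It ranged from 0 to 4.15 in epithelium (median 0.471, n = 9), with YM4 highest on 12 counts and YF5 at 0 counts. Its stromal levels were 13.7, 13.6 and 22.6 in O1, O2 and O3 and 9.86 and 8.75 in Y1 and Y3, so the layers did not overlap. The log2 fold change was -3.84 (SE 0.48, adjusted p = 1.36e-06).

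Lyve1, which encodes the hyaluronan receptor of lymphatic endothelium (chromosome 7, 110850607 to 110863239), was the most even of the lymphatic genes. It ranged from 3.97 to 6.58 in epithelium (median 5.17, n = 9) and was 21.2, 23.5 and 23.3 in stroma of O1, O2 and O3 and 19.0 and 17.7 in stroma of Y1 and Y3. The layers were far apart relative to the spread within each, and the log2 fold change was -2.05 (SE 0.17, adjusted p = 2.32e-09). Lyve1 is also made by some tissue macrophages, and 7 of 8 macrophage genes tested were lower in epithelium, from C1qa (log2 fold change -1.76) to Cd68 (-0.28, not called), with summed levels of 30.9 to 71.7 in epithelium and 81.2 to 144 in stroma. The part of macrophages in the Lyve1 result was not tested.

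Pdpn encodes podoplanin, a membrane glycoprotein of lymphatic endothelium that fibroblasts and basal keratinocytes also make (chromosome 4, 143267431 to 143299564). It ranged from 0.689 to 4.45 in epithelium (median 2.73, n = 9) and was 2.16, 3.70 and 3.63 in stroma of O1, O2 and O3 and 4.23 and 3.55 in stroma of Y1 and Y3. All stromal values lay within the epithelial range, and the lowest epithelial values came from OF5 and OM8, on 2 and 4 counts. The log2 fold change of -0.32 (SE 0.37, adjusted p = 0.48) did not pass the test. Alongside, basal keratinocyte genes were higher in epithelium, as given above, and 3 of 6 fibroblast genes were lower, from Dcn (log2 fold change -1.07) to Lum (-0.20, not called), with summed levels of 280 to 632 in epithelium and 415 to 1031 in stroma. Their part in the Pdpn result was not tested.

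**Figure D1:**
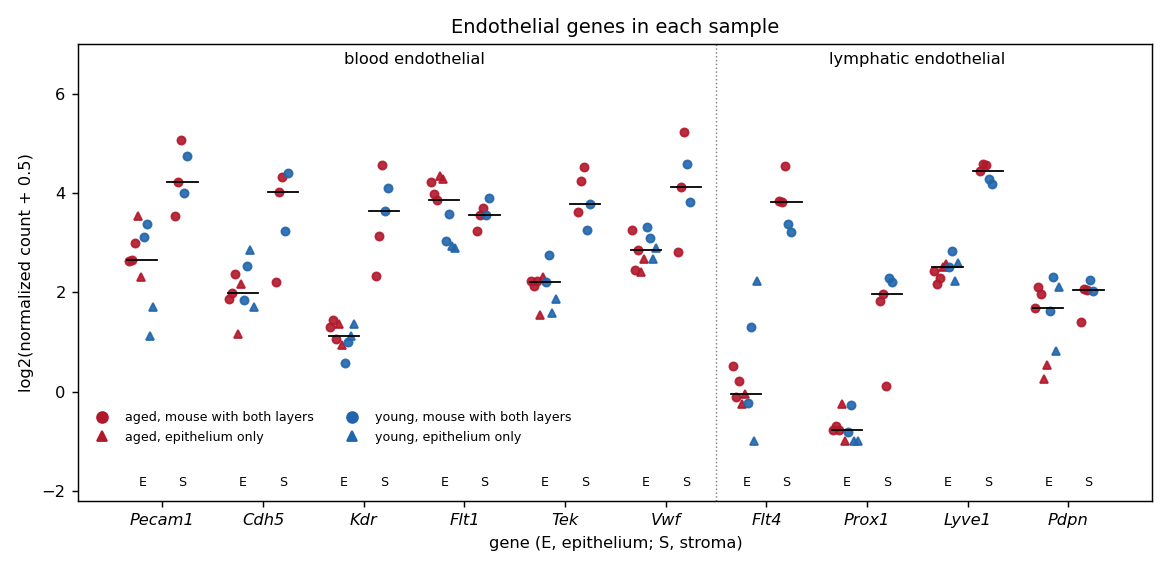
Each point is 1 sample, plotted as log2(normalized count + 0.5) for each gene in epithelium (E, n = 9) and stroma (S, n = 5), with bars at the medians, colours for age and triangles for the 4 mice with epithelium only. Stroma lay above epithelium without overlap for Pecam1, Kdr, Tek, Flt4, Prox1 and Lyve1, while the layers overlapped for Cdh5, Vwf, Flt1 and Pdpn.

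The 2 layers of 6 genes did not overlap (Pecam1, Kdr, Tek, Flt4, Prox1 and Lyve1), each lower in epithelium, where 16.9% of the 16791 genes tested had that pattern. In the 5 mice with both layers, the epithelial sample was below the stromal sample of the same mouse in 5 of 5 mice for Pecam1, Cdh5, Kdr, Tek, Flt4, Prox1 and Lyve1. The share of all genes lower in 5 of 5 mice was not computed. Vwf was lower in 4 of 5, with mouse O1 going the other way (9.04 in epithelium, 6.48 in stroma). Flt1 was lower in 2 of 5 mice, young Y1 and Y3 (log2 difference -0.51 and -0.31). It was higher in aged O1, O2 and O3 (0.98, 0.42 and 0.16). Pdpn was lower in 2 of 5 mice, aged O3 and young Y1. O1 stroma was the lowest stromal sample for Pecam1, Cdh5, Kdr, Flt1, Vwf and Pdpn, and O3 stroma was the highest for Pecam1, Kdr, Tek, Vwf and Flt4 and the lowest for Prox1. The summed level of 4 leukocyte genes was 49.996 in O3 stroma against 9.16 to 20.4 in the other stromal samples, and that of 5 red cell genes was 431 against 188 to 270. O1 stroma had the highest striated muscle sum (76538 against 42353 to 67380) and the lowest fibroblast sum (415 against 705 to 1031). The part of these cells in the endothelial values was not tested. With each mouse left out in turn, O1 and O3 included, 8 of the 10 genes were called, all lower in epithelium.

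**Figure D2:**
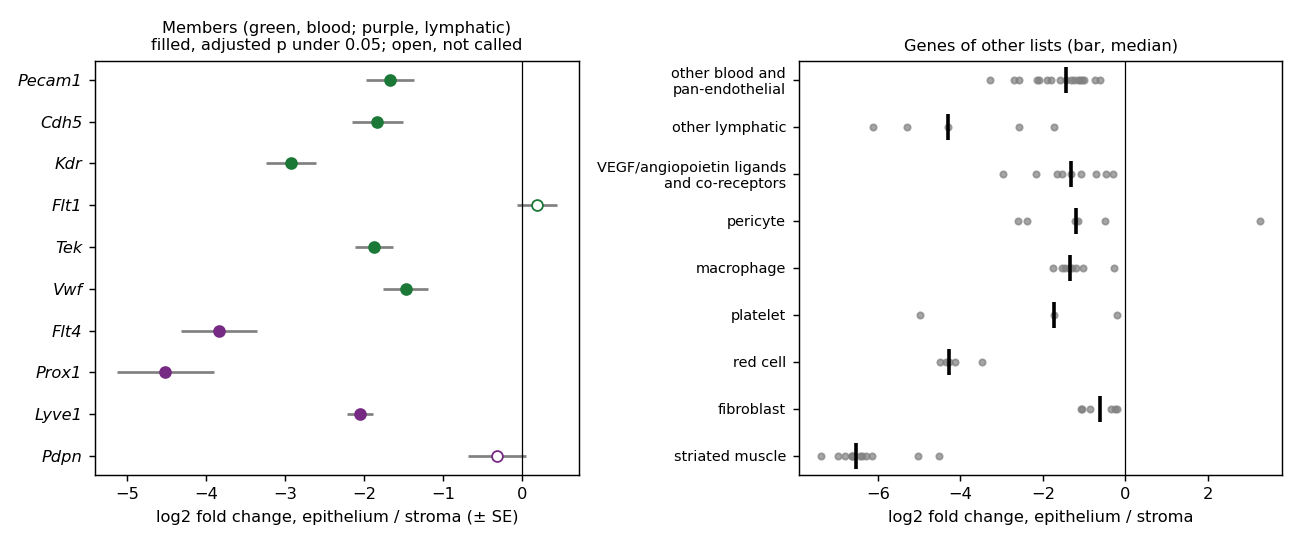
Log2 fold changes of epithelium over stroma from the fit over 14 samples are plotted for the 10 genes with standard errors (left, filled where the adjusted p was under 0.05) and for the genes of other lists, 1 point each with a bar at the median (right). The 8 called genes lie between -4.52 and -1.47, and Flt1 and Pdpn lie near 0.

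Further genes of the same vessels were examined next. Of 19 further blood and pan-endothelial genes, 17 were tested and 13 were lower in epithelium, with a median log2 fold change of -1.45 over those tested. The lowest were Erg (-3.29, SE 0.47), an endothelial ETS transcription factor, Icam2 (-2.70, SE 0.58), an endothelial adhesion protein, and Cldn5 (-2.59, SE 0.64), the endothelial tight junction claudin. Of 6 further lymphatic genes, 5 were tested and all 5 were lower, with a median of -4.29. These included the lymphatic chemokine Ccl21a (-6.12, SE 0.46), Mmrn1 (-5.30, SE 0.40) and Reln (-4.29, SE 0.42). The symbol Ccl21a belongs to 2 loci in the GENCODE annotation, so its reads are uncertain. The lymphatic regulator Foxc2 was not tested, with 0 to 26 counts in any sample.

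Some of the ligands and co-receptors were lower as well. Of 9 VEGF and angiopoietin ligands and co-receptors, 5 were lower in epithelium and none was higher, with a median log2 fold change of -1.31. Epithelial Vegfb averaged 4.25 ± 1.77 (SD, n = 9) and stromal Vegfb 35.5 ± 6.15 (SD, n = 5), and its log2 fold change was -2.98 (SE 0.24, adjusted p = 1.85e-09). Vegfa, which encodes the ligand of the Kdr and Flt1 receptors, fell by 1.08 on the log2 scale (SE 0.20). Vegfd, a ligand of the Flt4 receptor, fell by 2.15 (SE 0.33), and the co-receptor Nrp2 fell by 1.66 (SE 0.23). Vegfc, the other ligand of the Flt4 receptor, had 0 to 1.03 normalized counts in epithelium and 0.0765 to 2.98 in stroma and did not pass the test (log2 fold change -1.31, adjusted p = 0.11).

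Markers of other cells also differed between the layers. Of 6 pericyte genes, 4 were lower in epithelium, from a log2 fold change of -2.60 for Abcc9, and 1 was higher, Notch3 at 3.28, a receptor that keratinocytes also make, and the summed levels were 100 to 147 in epithelium and 131 to 199 in stroma. All 12 striated muscle genes were lower, from Ttn (-7.39) to Des (-4.53), with summed levels of 169 to 1855 in epithelium and 42353 to 76538 in stroma. All 5 red cell genes were lower, from Hbb-bs (-4.49) to Alas2 (-3.48), with sums of 2.76 to 51.5 in epithelium and 188 to 431 in stroma. Of 4 platelet genes, 3 were tested and 2 were lower, from Ppbp (-4.97) to Itga2b (-0.21, not called), with sums of 3.46 to 7.31 in epithelium and 6.34 to 16.7 in stroma. Of 4 leukocyte genes, 2 were tested and 1 was lower (Ptprc, -2.02, beside Itgam at -0.82, not called), with sums of 2.23 to 11.03 in epithelium and 9.16 to 49.996 in stroma. Platelets carry von Willebrand factor and CD31. The lymphocyte genes Cd3e and Cd79a held 3 counts or fewer in 6 and 7 of the 9 epithelial samples. The part of muscle, blood and leukocyte RNA in the endothelial results was not tested.

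The second question was how blood and lymphatic genes stand to each other within a layer. For this, levels were divided by the length of all annotated exons of each gene, giving normalized counts per kilobase. In epithelium the order of median levels per kilobase was Lyve1 (1.77), Pdpn (1.504), Flt1 (1.04), Pecam1 (0.929), Tek (0.872), Cdh5 (0.8288), Vwf (0.420), Kdr (0.185), Flt4 (0.0573) and Prox1 (0.00987). Neighbours in this order overlapped in range, with the exception of Vwf and Kdr. In stroma the order was Lyve1 (7.27), Cdh5 (3.75), Pecam1 (2.93), Tek (2.81), Pdpn (2), Flt4 (1.65), Kdr (1.33), Vwf (1.05), Flt1 (0.837) and Prox1 (0.406). Lyve1 did not overlap Cdh5 there and Flt1 did not overlap Prox1, while all other neighbours did overlap. The largest moves in rank were those of Flt1, from rank 3 in epithelium to rank 9 in stroma, and of Cdh5, from rank 6 to rank 2.

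The summed level of the 6 blood genes in normalized counts per kilobase had a mean of 4.36 ± 0.79 over the 9 epithelial samples (± SD) and 13.3 ± 5.21 over the 5 stromal samples. That of the 4 lymphatic genes was 3.31 ± 0.98 in epithelium and 11.1 ± 1.32 in stroma. Lymphatic genes made up 42.7% ± 8.17 of the sum of all 10 genes in epithelium (range 32.3 to 60.5) and 47.1% ± 9.43 in stroma (range 37.9 to 60.6), which is within the spread between samples. This depended on dividing by length. Without that step the share was 19.9% ± 6.53 in epithelium and 32.2% ± 8.63 in stroma, and 8 epithelial samples (13.6 to 23.9) lay below all stromal samples (24.6 to 46.1), with YM4 (35.5) inside the stromal range. With Pdpn left out, the share was 30.1% ± 5.96 in epithelium (24.8 to 45.0) and 42.6% ± 9.93 in stroma (32.7 to 57.7), and the highest epithelial sample, YM4, was the only one inside the stromal range. The epithelial lymphatic sum was mostly Lyve1 and Pdpn (means 1.72 and 1.45 per kilobase), beside 0.126 for Flt4 and 0.0137 for Prox1. In stroma the means were 7.18, 1.90, 1.66 and 0.370 in the same order. Other cells also make Lyve1 and Pdpn, so these shares do not stand for lymphatic endothelium alone. They are given as descriptions, with no test.

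The 2 VEGF-A receptors stood in different proportion in the layers. Flt1 per kilobase stood at 5.27 ± 1.98 times Kdr over the epithelial samples (SD, n = 9, range 2.23 to 8.92) and at 0.76 ± 0.37 times Kdr over the stromal ones (SD, n = 5, range 0.363 to 1.31). No epithelial sample reached down to a stromal one. Aged epithelium had a ratio of 6.42 ± 1.56 (SD, n = 5) and young epithelium one of 3.84 ± 1.53 (SD, n = 4). This gap came from the mice with epithelium only (6.35 and 8.92 in aged, 2.84 and 2.23 in young). In the mice with both layers the aged samples (6.23, 4.63 and 5.97) overlapped the young ones (5.21 and 5.10). The ratio is also a description with no test, and in the mice with epithelium only it rests on 4 to 6 counts of Kdr in a sample. Another choice of gene lengths would scale it by the same factor in every sample.

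**Figure D3:**
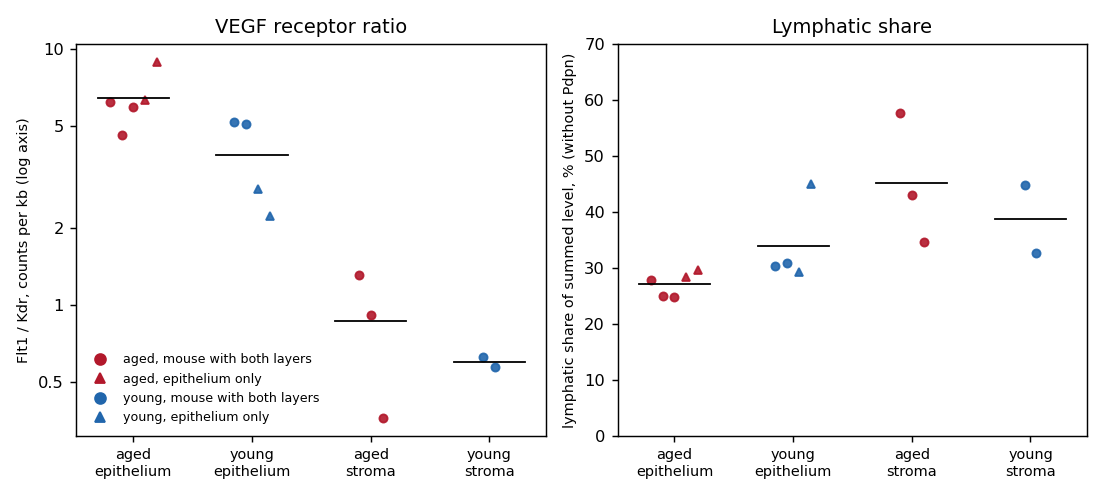
Points are samples and bars are group means, for the ratio of Flt1 to Kdr in counts per kilobase on a log axis (left) and for the share of the lymphatic genes without Pdpn in the summed level per kilobase, in percent (right). The ratio was 2.23 or more in epithelium and 1.31 or less in stroma.

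For the likeness of pattern, each gene was centred on its mean log2 level over the 14 samples and compared with Cdh5 and with Lyve1 by the mean absolute difference. Nearest to Cdh5 among 9754 genes were Aqp1 (0.27), which encodes a water channel of endothelium and other cells, Angptl2 (0.30), Enpp5 (0.32), Cul9 (0.34) and Apbb1ip (0.34). Nearest to Lyve1 were Cep170 (0.15), Arhgef17 (0.15), Inpp4a (0.15), Ccser2 (0.17) and Hexa (0.17). The 14 samples share layers and mice, so these distances largely follow the difference between the layers.

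The third comparison asked how the same genes differ between aged and young mice in each layer. In epithelium none of the 9 genes tested was called by edgeR's quasi-likelihood test, where 0.0126% of 15859 genes were (2 genes), and 1 of the 9 had an unadjusted p under 0.05 beside 509 of all genes. Prox1 had too few counts to be tested. DESeq2 called 28 genes in all and 1 of the 9. That gene was Flt1.

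Flt1 had 18.1, 15.3, 14.04, 19.6 and 18.9 normalized counts in epithelium of aged mice O1, O2, O3, OF5 and OM8. It had 7.72, 11.5, 7.08 and 6.92 in epithelium of young mice Y1, Y3, YF5 and YM4. All 5 aged samples were above all 4 young ones, a pattern that 0.883% of the genes tested had (and 0.391% the reverse), and no other gene of the 9 had either. The aged samples averaged 17.2 ± 2.41 (SD, n = 5) and the young samples 8.30 ± 2.15 (SD, n = 4), and the log2 fold change was 0.93 (SE 0.18). Its unadjusted p of 8.04e-05 ranked 9 among 15859 genes, and the adjusted p was 0.14, so the difference did not pass the threshold.

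The call for Flt1 depended on the processing. DESeq2 gave a log2 fold change of 0.95 (adjusted p = 0.00808), with 28 genes called in all. Without the filter on low counts, edgeR gave 0.94 (adjusted p = 0.00597), with 36 of 46496 genes called. Without young mouse Y3, edgeR gave 1.21 (adjusted p = 0.0455), with 3 of 15350 genes called. Y3 had the highest Flt1 level of the young samples (11.5), so leaving it out widens the difference. Over the other alternatives the adjusted p ran from 0.1003 to 0.903 with a log2 fold change between 0.71 and 1.01. The direction held within both forms of mouse code. In the mice with both layers, aged epithelium had 14.04 to 18.1 and young 7.72 and 11.5, a difference of 0.71 in mean log2 level, and in the mice with epithelium only, aged had 18.9 and 19.6 and young 6.92 and 7.08, a difference of 1.40.

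The other blood genes showed small differences in epithelium relative to their spread. Aged samples averaged 1.84 ± 0.34 for Kdr (SD, n = 5) and young samples 1.56 ± 0.45 (SD, n = 4), with a log2 fold change of 0.41 (SE 0.35). Log2 fold changes were -0.01 for Pecam1 (SE 0.36), -0.29 for Cdh5 (SE 0.29), -0.19 for Tek (SE 0.25) and -0.32 for Vwf (SE 0.21), each with an adjusted p of 0.9996. Pecam1 had opposite directions in the 2 forms of code, with aged below young in the mice with both layers (5.73 to 7.41 against 8.15 and 9.91) and above young in the others (4.48 and 11.03 against 1.67 and 2.77), the latter on 4 to 32 counts. The sign of the difference in mean log2 level also turned between the mice with both layers and the others for Kdr (0.47 and -0.09), Tek (-0.28 and 0.21), Lyve1 (-0.37 and 0.13) and Prox1 (-0.20 and 0.38). In the mice with both layers alone, Kdr was higher in every aged sample than in every young one (1.57 to 2.21 against 0.992 and 1.505). Lyve1 was lower in every aged sample (3.97 to 4.91 against 5.17 and 6.58). Flt1 was likewise higher and Pecam1 lower in every aged sample of these mice, as given above. The share of all genes with such a pattern in these epithelial samples was not computed. In stroma of the same mice, 6.57% of all genes tested were higher and 14% lower in every aged sample.

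Of the lymphatic genes, Flt4 averaged 0.57 ± 0.23 over the aged (SD, n = 5) and 1.62 ± 1.89 over the young samples (SD, n = 4), with a log2 fold change of -1.16 (SE 0.67). Young samples alone spanned the whole range of Flt4, from 0 in YF5 to 4.15 in YM4. Lyve1 was 4.77 ± 0.59 in aged and 5.36 ± 0.99 in young epithelium (log2 fold change -0.27, SE 0.22), and Pdpn was 2.32 ± 1.43 and 3.02 ± 1.41 (-0.38, SE 0.34). Prox1 had 0 to 4 counts in aged and 0 to 10 in young samples. The median log2 fold change over the 9 genes was -0.27 against -0.003 for all genes tested. Beside these values, 12 of 12 striated muscle genes (median -1.15) and 6 of 6 fibroblast genes (median -0.33) had a log2 fold change below 0 in aged epithelium. None was called, but 3 of the fibroblast genes had an unadjusted p under 0.05, led by Col3a1 (log2 fold change -0.70, unadjusted p = 0.000136, adjusted p = 0.18). The summed level of the muscle genes stood apart in young YF5 (1855). It was 231 to 729 in the other young and 169 to 1145 in the aged samples. Other lists lay above 0 for most genes, again with none called: 4 of 4 red cell genes (median 0.95), 7 of 8 macrophage genes (0.18), 5 of 6 pericyte genes (0.21) and 7 of 9 VEGF and angiopoietin ligands and co-receptors (0.21). The red cell sum stood apart in aged O1 (51.5), with 2.76 to 12.7 in the other aged and 3.51 to 16.2 in the young samples. The further blood endothelial genes (6 of 14 above 0, median -0.04) and lymphatic genes (2 of 4, median 0.04) were divided. Of all 15859 genes tested, 7849 lay above 0 and 8010 below. The part of these cells in the endothelial values was not tested.

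In stroma 3 aged samples were set beside 2 young ones, and no gene was called: 0 of 10 endothelial genes and 0% of 21323 genes tested by edgeR, with 0 of the 10 and 776 of all genes at an unadjusted p under 0.05, while DESeq2 called 2 genes and none of the 10. Flt4 averaged 16.6 ± 5.20 over the 3 aged samples (± SD) and 9.30 ± 0.78 over the 2 young samples, a log2 fold change of 0.83 (SE 0.38, unadjusted p = 0.0517). Lyve1 was 22.7 ± 1.25 in aged and 18.4 ± 0.95 in young stroma, a log2 fold change of 0.30 (SE 0.27). For both, all aged samples were above both young ones, as they were for 6.57% of all genes. Prox1 was 2.34 ± 1.54 in aged and 4.26 ± 0.18 in young stroma (log2 fold change -0.88, SE 0.85), and its aged samples were all below the young ones, as for 14% of all genes.

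Tek averaged 17.5 ± 5.33 over the aged (SD, n = 3) and 11.1 ± 3.01 over the young stromal samples (SD, n = 2), with overlap between the groups (log2 fold change 0.65, SE 0.39). The remaining genes had log2 fold changes in stroma between -0.30 for Pdpn and 0.13 for Vwf, each with a standard error larger than its size. O1 and O3, both aged, bounded the range of Kdr, Pecam1 and Vwf, so that the spread within aged stroma exceeded the difference between ages for these genes. The median over the 10 genes was -0.09 against -0.01 for all genes tested.

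Further lymphatic genes in stroma had log2 fold changes above 0 in aged mice for 5 of 6 (median 0.39). Over all genes tested, 10476 of 21323 lay above 0. The 1 below 0 was Foxc2 (-0.36, SE 2.15). Of the 4 lymphatic genes given above, 2 lay above 0 and 2 below, Prox1 (-0.88) and Pdpn (-0.30). The unadjusted p by edgeR was 0.0407 for Ccl21a (1.24) and 0.0203 for Itga9 (0.77). The co-receptor Nrp2, which also binds VEGF-C, had 1.03 (unadjusted p = 0.00671). All had an adjusted p of 0.99996. Log2 fold changes of markers of other cells were also examined in these samples, and none was called. All 9 macrophage genes lay above 0 (median 0.38), as did 6 of 7 basal keratinocyte genes (median 0.25), of which Krt5 (2.66), Krt14 (2.29) and Krt15 (3.16) had unadjusted p-values of 0.0103, 0.0174 and 0.00868. The summed level of the macrophage genes was 81.2 to 144 in aged and 84.7 to 99.9 in young stroma, and that of the basal keratinocyte genes 48.5 to 98.7 and 49.2 to 50.04. Their part in the endothelial values was not tested.

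Whether the age difference itself differed between the layers was tested as an interaction in the 5 mice with both layers. None of the 10 genes was called by edgeR, and 0% of 22771 genes were, with 1 of the 10 (Flt1) and 979 of all genes at an unadjusted p under 0.05. DESeq2 called 62 genes and none of the 10. For Flt1, aged against young was higher in epithelium than in stroma by 0.95 on the log2 scale (SE 0.40, unadjusted p = 0.0359, adjusted p = 0.99997), with stroma at 10.9 ± 1.84 in aged (SD, n = 3) and 12.8 ± 2.22 in young mice (SD, n = 2). Flt4 (-1.62, SE 0.82), Tek (-0.99, SE 0.49) and Lyve1 (-0.70, SE 0.33) had interaction terms below 0, and Kdr (0.88, SE 0.82) above 0. These terms share their samples with the comparisons above.

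**Figure D4:**
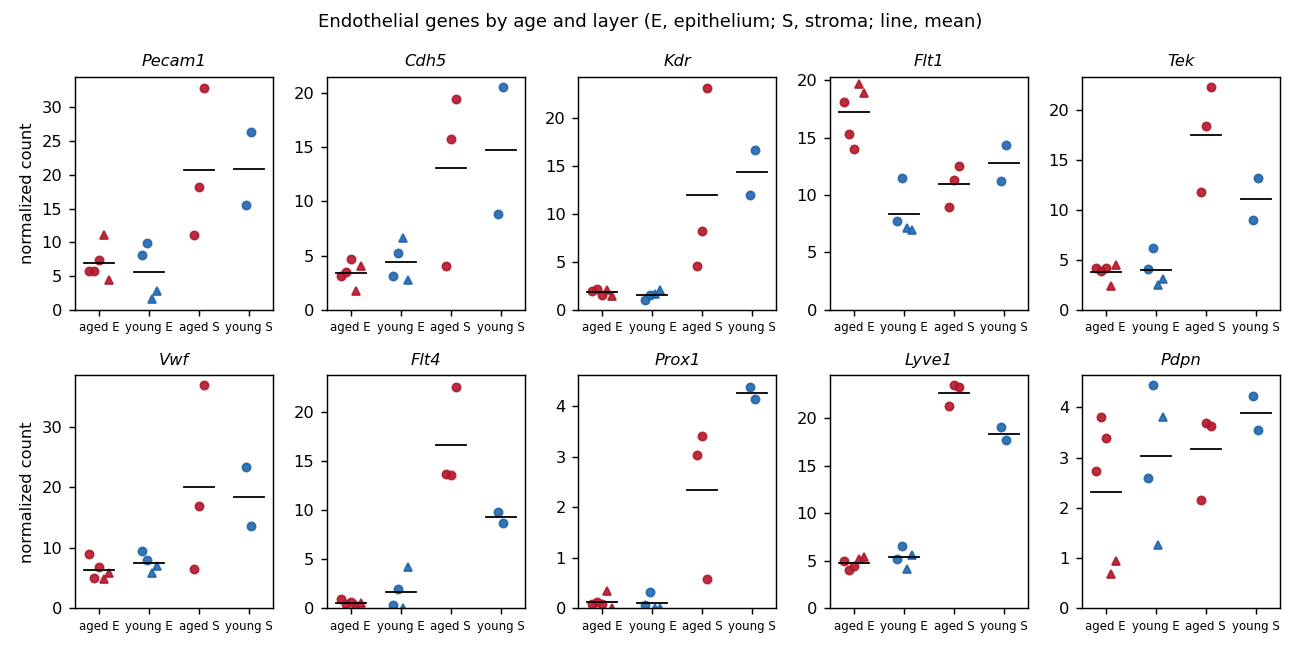
Normalized counts of each gene are shown by age and layer, 1 point a sample with a line at the group mean and triangles for mice with epithelium only, and each panel has its own axis from 0. Flt1 in aged epithelium (14.04 to 19.6) lay above Flt1 in young epithelium (6.92 to 11.5), while the age groups of the other 8 genes tested overlapped in epithelium.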

How the data were processed

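The 14 bulk RNA-Seq samples were grouped by layer, age and mouse from the labels. The authors aligned reads to GRCm38.p6 with Rsubread, counted them per gene with featureCounts and deposited whole-number counts without normalization. How strand and multi-mapping reads were handled is not given in the sources used here. Libraries were made from oligo(dT)-enriched RNA.

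Tests used edgeR 4.0.16 under R 4.3.3 (TMM, filterByExpr with a minimum count of 10, robust quasi-likelihood fit) and Benjamini-Hochberg adjustment over all genes tested, with a threshold of 0.05. The layers were compared over 14 samples without a covariate. Age was compared in 9 epithelial samples with a covariate for the form of mouse code, in 5 stromal samples, and as an interaction with layer in 10 samples. The layers of 5 mice are paired, since both samples carry the code of the same animal. Correlations of their deviations from the group means across 22771 genes ran from 0.0519 to 0.0726 in O1, O2 and O3. Y1 and Y3 are the only young mice with both layers, so their deviations are equal and opposite. They gave the same value, 0.122. Exon lengths and positions came from GENCODE M21. Log2 levels used a pseudocount of 0.5.

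The 10 genes and the other gene lists were chosen with earlier results of these data known. All 10 genes were named in each comparison. From the endothelial, lymphatic and ligand lists up to 3 called genes with the largest fold changes were named, from the other lists the extremes, and for likeness of pattern the 5 nearest genes whose average log2 CPM was 2 or more. Genes of these lists named in the age comparisons, and genes named for being untested, for their binding partners or as overlapping, were added after their values were seen. The alternatives were DESeq2 1.42.0, upper quartile normalization, other filters on low counts, mitochondrial and repeated loci left out, mouse as a block, other covariates and samples, and each mouse left out. The steps were also run on simulated counts, and the outcome is not given here. Replicates are separate mice, and counting error enters the tests through that spread.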

Additional observations from a re-analysis of the deposited data

Results flagged for a closer look

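Tek in epithelium of aged mouse OF5 lay below the other 4 aged epithelial samples. Its level was 1.54 on the log2(normalized count + 0.5) scale, with the nearest sample at 2.13 and the highest at 2.32. The value rests on 7 counts in one of the 4 samples with few usable reads, where it equals 2.41 normalized counts. It was the 1 value singled out by Dixon's test in 20 tests (10 genes in each of the groups with 4 or 5 samples), and chance singles out about 1 in 20 groups.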

How the results depend on the processing

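In the comparison of the layers, 8 of the 10 genes were called, all lower in epithelium, under each alternative with the exception of the filter that asks for 10 counts in every sample, which left 3 of the genes to test and called 2. Under that filter Flt1 turned from 0.19 to -0.12. With mouse as a replicate block, fitted in the 5 mice that have stroma, 8 of the 10 genes were called, all lower, and 8590 of 16713 genes in all, against 9400 in the same 10 samples without the block, and the pairing changed no call among the 10. The block moved the median log2 fold change of all genes to 0.14 between layers and to 0.23 in the interaction, and leaving out mitochondrial and repeated loci moved the latter to -0.11. With no filter, which adds genes with very few counts, that median was -0.56 between layers, -0.60 for age in stroma and 0.20 in the interaction.

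For age in epithelium 1 gene (Flt1) was called with DESeq2, 1 with no filter, and 0 to 1 with each mouse left out. None of the 10 was called for age in stroma or in the interaction under any alternative, so the reversals there concern differences that passed no test, and their cause was not tested. Pecam1 by age in epithelium was 0.24 with DESeq2, 0.0032 with no filter, 0.0054 with the loci left out, 0.054 with no covariate, and -0.28 to 0.31 with each mouse left out, where Tek was -0.33 to 0.11. By age in stroma Pecam1 was 0.013 with DESeq2, and with each mouse left out Pecam1 ran from -0.54 to 0.40, Cdh5 from -0.66 to 0.54, Kdr from -1.19 to 0.13 and Vwf from -0.68 to 0.56. In the interaction Cdh5 was -0.034 with DESeq2, -0.26 with no filter, -0.13 with the loci left out and -0.11 over 14 samples, Pdpn -0.016 with no filter and -0.23 over 14 samples, Prox1 0.32 with the replicate block and 0.32 over 14 samples, and Pecam1 0.20 over 14 samples. With each mouse left out the interaction ran from -0.41 to 0.25 for Cdh5, -0.83 to 1.29 for Prox1, -1.23 to 0.36 for Vwf, -0.23 to 0.69 for Pdpn and -2.42 to 0.081 for Flt4.

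The lymphatic share in epithelium was 30.1% with Pdpn left out, 19.9% when levels were not divided by length, where the layers overlapped only through YM4, and 33.7% with the length of the longest coding transcript, an alternative added after seeing the data, and the share in stroma was 32.2% when levels were not divided by length. Depth limits Prox1, Flt4 and Pdpn most in the 4 epithelial samples with few usable reads.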
